A study of Mus musculus with 24 samples.

Results

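*H19*, *Igf2* and 6 of their neighbours on distal mouse chromosome 7 (*Mrpl23*, *Tnnt3*, *Lsp1*, *Tnni2*, *Ctsd* and *Cd81*) were followed in adipocyte precursors from brown and white fat. They were taken by name from a deposited table of 49452 genes. The rule names the genes and holds no threshold on a level, and it does not take every gene of the stretch. The *H19* row has no symbol in the table and was found by its gene identifier, whereas the other 7 genes were found by symbol. RNA-seq was performed on 24 libraries that form 8 groups of 3, 1 for each combination of depot, siRNA and day. The table names no unit, and its values were taken as FPKM, fragments per transcript length and library total, from the methods and processing notes. This unit is corrected for transcript length.

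The cells were the stromal vascular fraction (SVF), a mixed preparation that holds precursors next to other cells of the tissue, from interscapular brown fat (BAT) or epididymal white fat (WAT) of young male C57BL/6 mice. All groups were grown to near confluence and nucleofected, 1 arm with a non-targeting control siRNA (siCtrl) and 1 arm with an siRNA against *H19* (siH19). RNA was taken before induction (d0) or at day 3 of differentiation (d3). Every d3 group received an induction mix, listed as insulin, dexamethasone, rosiglitazone and IBMX, with indomethacin and triiodothyronine for BAT cells. The paper's methods can also be read as giving some of these parts as alternatives by depot. For the medium after induction they list rosiglitazone for white but triiodothyronine for brown cells. Depot and medium therefore cannot be told apart at d3. BAT and WAT libraries also carry different library name prefixes, so depot cannot be told apart on either day from whatever these prefixes mark. The titles of the control libraries carry "siKO" although their siRNA is given as non-targeting. BAT tissue could be pooled from several mice, and no source used here says whether the 3 libraries of a group came from separate cultures or animals, so the p-values measure only the spread between these samples.

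*H19* and *Igf2* form the textbook pair of oppositely imprinted genes. An imprinting control region between them binds CTCF on the maternal chromosome, where enhancers beyond *H19* then act on *H19*, and is methylated on the paternal chromosome, where the same enhancers act on *Igf2*, which encodes a fetal growth factor. The spliced *H19* RNA is non-coding and is also the precursor of miR-675. Both genes are highly active in mesodermal tissues before birth and are largely silenced afterwards, with skeletal muscle among the tissues that keep *H19* expression. Total RNA-seq levels, as used here, do not separate the parental alleles.

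All coordinates are GRCm38. *H19* (ENSMUSG00000000031, a lincRNA) lies on the minus strand of chromosome 7 at chr7:142575529-142578143. *Igf2* (ENSMUSG00000048583) lies on the same strand at chr7:142650766-142666816, 72.6 kb from *H19*. On the other side of *H19* follow *Mrpl23* (ENSMUSG00000037772, a mitochondrial ribosomal protein) at chr7:142532686-142540747 and *Tnnt3* (ENSMUSG00000061723, fast skeletal troponin T) at chr7:142498836-142516009. *Lsp1* (ENSMUSG00000018819, an actin-binding protein of leukocytes) lies at chr7:142460809-142494867 and *Tnni2* (ENSMUSG00000031097, fast skeletal troponin I) at chr7:142441808-142444410. *Ctsd* (ENSMUSG00000007891, the lysosomal protease cathepsin D) lies at chr7:142375911-142388038. *Cd81* (ENSMUSG00000037706, a tetraspanin of the plasma membrane) is the outermost, beyond *Igf2* at chr7:143052739-143067934 and 474.6 kb from *H19*.

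The sequences that bear on the knockdown are the guide strands of the 3 siRNAs that the study designed against *H19* and, since *H19* is a miRNA host, the mature strands of miR-675 from RefSeq (GRCm38.p6). Capitals mark bases 2 to 8, the seed that pairs first with a target.
siH19: uCUUGAUUcagaacgagacgg
siH19#2: uACGGAGAgacucaaagcuat
siH19#3: uGGUGUUCaagaaggcuggat
mmu-miR-675-5p: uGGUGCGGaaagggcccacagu
mmu-miR-675-3p: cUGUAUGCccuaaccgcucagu
No seed is shared among the 3 guides and the miR-675 strands.

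The sites of the 3 guides were found in the spliced *H19* transcripts, and each occurs in 5 of 7 annotated isoforms. The first lies in exon 4 of the 5 exons of the longest isoform.
site of siH19: gtctcgttctgaatcaaga
site of siH19#2: agctttgagtctctccgta
site of siH19#3: ccagccttcttgaacacca
They lie on the minus strand at chr7:142576255-142576273, at chr7:142575771-142575789 in exon 5, and across the junction of exons 2 and 3 at chr7:142576613-142576624 and chr7:142576524-142576530. The miR-675 hairpin lies upstream of all these sites, at chr7:142577064-142577147. The library titles carry "siH19_3", while the methods describe 1 oligonucleotide without this number, so which guide was used in these libraries could not be settled. Mature miRNAs are not measured by these poly-A libraries. The hairpin's own row was listed at 0 in 23 of 24 libraries.

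*H19* was abundant in control BAT cells, about 10-fold lower in control WAT cells, and low in every group that received siH19. In BAT siCtrl d0 it stood at 107.9, 160.4 and 122.5 FPKM in replicates 1, 2 and 3 (130 ± 27.1, mean ± SD, n = 3). In BAT siCtrl d3 it stood at 99.7, 86.4 and 83.2 FPKM (89.8 ± 8.76, n = 3). WAT siCtrl cells held 12.3, 11.3 and 11.6 FPKM at d0 (11.7 ± 0.528, n = 3) and 8.67, 8.19 and 8.90 FPKM at d3 (8.59 ± 0.361, n = 3). The lowest BAT control library was above the highest WAT control library on each day, and the groups of the 2 days did not overlap within either depot.

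After siH19, BAT cells held 2.82, 5.20 and 5.05 FPKM of *H19* at d0 (4.36 ± 1.33, n = 3) and 12.04, 12.1 and 16.9 FPKM at d3 (13.7 ± 2.79, n = 3). In WAT cells *H19* stood at 1.23, 0.630 and 1.76 FPKM at d0 (1.21 ± 0.566, n = 3) and at 0.327, 0.291 and 0.966 FPKM at d3 (0.528 ± 0.380, n = 3). None of the siH19 libraries reached the lowest control library of its own depot and day. In order of level, BAT siCtrl d0 was followed by BAT siCtrl d3, then by BAT siH19 d3 and WAT siCtrl d0, which overlap, and further down by WAT siCtrl d3, BAT siH19 d0, WAT siH19 d0 and WAT siH19 d3, of which only the last pair overlap.

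**Figure D1:**
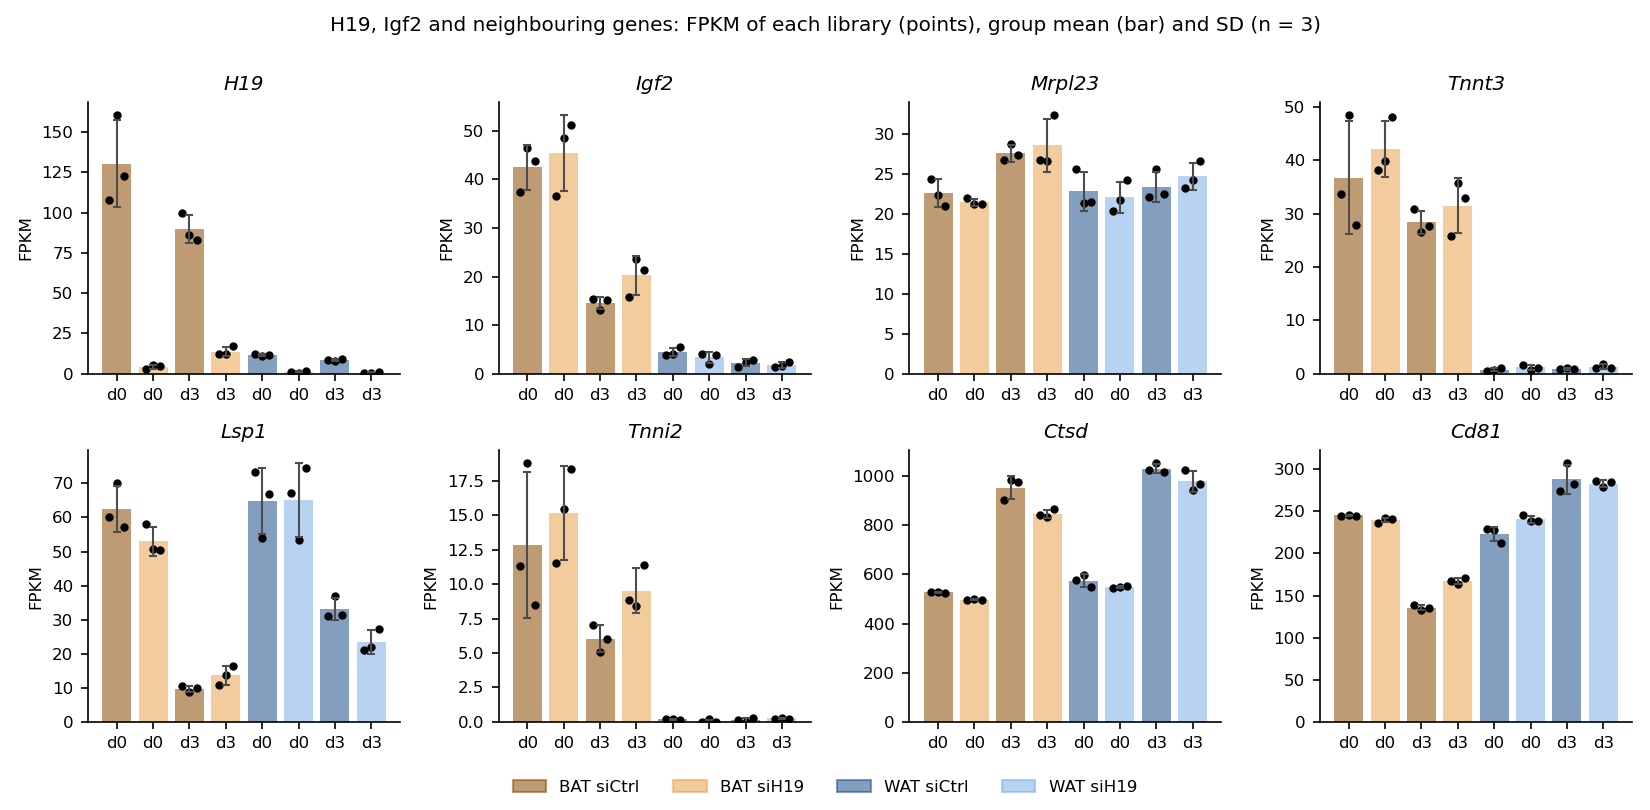
Levels of the 8 genes in FPKM (linear y axis from 0, scaled for each gene) in each library (points), with the mean (bar) and SD (error bar) of each group of 3, for the 8 groups of depot, siRNA and day. *H19* is at 107.9 to 160.4 FPKM in BAT siCtrl d0 and below 17 FPKM in every siH19 library, and *Tnnt3* and *Tnni2* are near 0 in all WAT groups.

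Differences between groups were tested with limma on log2(FPKM + 1), so that fold changes of low genes are understated, and all p-values were adjusted over all genes tested (Benjamini-Hochberg, two-sided). A gene was called in a comparison of 2 groups at an adjusted p under 0.05 with at least a 1.3-fold difference. In BAT d0, *H19* fell by 4.63 on the log2 scale after siH19 (SE 0.22, adjusted p = 0.00225), and it was the only one of the 8 genes called, against 1.94% of all genes tested in that comparison (0.617% higher and 1.32% lower). In BAT d3 it fell by 2.64 (SE 0.14, adjusted p = 0.00132), and 2 of the 8 genes were called against 8.57% of all genes (6.39% higher and 2.18% lower). In WAT d0 *H19* fell by 2.56 (SE 0.19, adjusted p = 0.0046), the only call among 7 genes tested against 1.53% of all genes. In WAT d3 it fell by 2.68 (SE 0.17, adjusted p = 0.00965), again the only call among 7, against 0.0305% of all genes. *Tnni2* was below the minimum level for a test in WAT cells. In WAT d3 *H19* was under 1 FPKM in all siH19 libraries and passed the filter on low levels only through the controls. The call there was lost with 0.1 FPKM added before the log (it then fell by 3.95, adjusted p = 0.0563), with no filter (0.0663) and without siH19 replicate 1 (0.0561), and without any one of the 3 control libraries *H19* could not be tested. With a replicate block the adjusted p was 0.143.

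As a share of the control mean of the same depot and day, the *H19* left after knockdown was 2.17%, 3.99% and 3.88% in the BAT d0 libraries (3.35% ± 1.02, n = 3) and 13.4%, 13.5% and 18.9% in the BAT d3 libraries (15.3% ± 3.11, n = 3). The WAT d0 libraries kept 10.5%, 5.39% and 15.1% (10.3% ± 4.84, n = 3), and the WAT d3 libraries 3.81%, 3.38% and 11.3% (6.15% ± 4.42, n = 3). In BAT the share left was higher at d3 than at d0 in every library. The test of that difference, an interaction term fitted over the 4 groups, gave a log2 difference of 1.99 between the effects at d3 and at d0 (SE 0.29, limma, adjusted p = 0.00282). In this fit 2 of the 8 genes passed, *H19* and *Cd81*, against 9.06% of all genes. Interaction terms were called on the adjusted p alone, with no minimum fold. The corresponding term in WAT was -0.12 for *H19* (SE 0.27, adjusted p = 0.902). There 0 of 7 genes passed, and 1, *Lsp1*, had an unadjusted p under 0.05, against 1.73% of all genes called.

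The knockdown in BAT d0 also differed from that in WAT d0 on the log2(FPKM + 1) scale (depot by siRNA term -2.07, SE 0.32, limma, adjusted p = 0.0208), and *H19* was the only 1 of 8 genes to pass, against 1.02% of all genes. This difference depends on the scale, since it was -1.63 with an adjusted p of 0.135 when 0.1 FPKM was added instead of 1, and the call was also lost when any of 5 different libraries was left out (adjusted p 0.0514 to 0.0568). At d3 the 2 depots' terms for *H19* differed by 0.04 (SE 0.24, adjusted p = 0.939).

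*H19* was lower at d3 than at d0 in control cells of both depots. Between d0 and d3 it fell by 0.52 on the log2 scale in BAT siCtrl cells (SE 0.15, limma, adjusted p = 0.0167), where 6 of the 8 genes were called against 65.2% of all genes (29.9% higher and 35.3% lower). Without BAT siCtrl d0 replicate 2, whose 160.4 FPKM is the highest *H19* level of the series, it fell by 0.36, less than the minimum fold, and the adjusted p was 0.0501 without BAT siCtrl d3 replicate 2 and 0.0533 without replicate 3. In WAT siCtrl cells it fell by 0.41 (SE 0.07, adjusted p = 0.00156), and 4 of 6 genes tested were called against 50.3% of all genes (26.3% higher and 23.9% lower). Without WAT siCtrl d0 replicate 1 or d3 replicate 2 it fell by 0.37 and 0.38, less than the minimum fold. In BAT cells treated with siH19, *H19* instead rose by 1.47 from d0 to d3 (SE 0.22, adjusted p = 0.000861), while all 8 genes were called in that comparison, against 60.6% of all genes. In WAT siH19 cells *H19* was too low to be tested, and 3 of 6 genes were called against 52.7% of all genes. The d3 against d0 and the siH19 against siCtrl comparisons share libraries, so their values are not independent of each other.

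Between the depots, *H19* was 11.1-fold higher in BAT than in WAT control cells at d0 by the ratio of means (log2 difference 3.35, SE 0.14, limma, adjusted p = 7.85e-06) and 10.5-fold higher at d3 (log2 difference 3.24, SE 0.08, adjusted p = 4.83e-07). At d0 4 of the 8 genes were called between the depots, *H19*, *Igf2*, *Tnnt3* and *Tnni2*, all higher in BAT and the last pair able to pass the filter only through BAT, against 31.2% of all genes (10.2% higher and 21% lower in BAT). At d3 6 of the 8 were called against 48.6% of all genes (16.5% higher and 32.1% lower), and *Tnnt3* and *Tnni2* could again pass only through BAT. The other 6 genes had at least 1 FPKM in every library of both depots. Among them 2 were called higher and 0 lower in BAT at d0, and 2 higher and 2 lower at d3. The median gene lay at -0.13 at d0 and -0.16 at d3 in these comparisons, and trimmed-mean scaling moved it by 0.13 and 0.18, so small depot differences shift with the scaling while those of *H19*, *Igf2* and the troponins are many times larger.

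*Igf2*, which encodes insulin-like growth factor 2, had the same depot and day order as *H19* in control cells but was not called after siH19 in any comparison. In BAT siCtrl cells it stood at 37.4, 46.4 and 43.8 FPKM at d0 (42.5 ± 4.65, n = 3) and at 15.4, 13.1 and 15.2 FPKM at d3 (14.6 ± 1.304, n = 3). WAT siCtrl cells held 3.90, 4.13 and 5.42 FPKM at d0 (4.48 ± 0.818, n = 3) and 1.44, 2.48 and 2.82 FPKM at d3 (2.25 ± 0.721, n = 3). All 4 control groups were separate from each other. *Igf2* was 9.49-fold higher in BAT than in WAT at d0 (log2 difference 2.99, SE 0.13, limma, adjusted p = 8.83e-06) and 6.48-fold higher at d3 (2.28, SE 0.18, adjusted p = 4.43e-05). From d0 to d3 it fell by 1.48 in BAT (SE 0.10, adjusted p = 1.35e-05) and by 0.77 in WAT (SE 0.19, adjusted p = 0.0114). The term for the difference between these 2 falls was -0.71 (SE 0.24, adjusted p = 0.026). In that fit 4 of the 8 genes passed, *Igf2*, *Lsp1*, *Tnni2* and *Cd81*, against 53% of all genes. *Tnni2* passed the filter on low levels there only through BAT. For *Igf2* the term was -0.54 with an adjusted p of 0.171 when 0.1 FPKM was added, and the call was also lost in the fit over all 24 libraries (adjusted p = 0.0552), with no filter on low FPKM (0.0541) and when any of 7 of the 12 libraries was left out (0.0525 to 0.0609).

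With siH19, *Igf2* stood in BAT cells at 36.5, 48.5 and 51.3 FPKM at d0 (45.4 ± 7.82, n = 3) and at 15.8, 23.7 and 21.3 FPKM at d3 (20.3 ± 4.02, n = 3). In WAT cells the values were 4.16, 2.096 and 3.93 FPKM at d0 (3.398 ± 1.13, n = 3) and 1.32, 1.502 and 2.43 FPKM at d3 (1.75 ± 0.596, n = 3). The siH19 and siCtrl libraries overlapped in all of these except BAT d3, where the lowest siH19 library was just above the highest control. The log2 differences after siH19 were 0.08 in BAT d0 (SE 0.14, limma, adjusted p = 0.793), 0.44 in BAT d3 (SE 0.15, adjusted p = 0.0980), -0.34 in WAT d0 (SE 0.22, adjusted p = 0.468) and -0.23 in WAT d3 (SE 0.22, adjusted p = 0.782). Without BAT siH19 d3 replicate 1, the lowest of its group, the BAT d3 difference was 0.60 with an adjusted p of 0.025. In siH19 cells *Igf2* fell by 1.13 in BAT (SE 0.18, adjusted p = 0.00108) and by 0.66 in WAT (SE 0.24, adjusted p = 0.0455) from d0 to d3. In WAT the days overlapped and the call was lost when any of 4 of the 6 libraries was left out. In BAT d0, where *H19* was reduced to a few percent of control, the *Igf2* libraries overlapped the control range.

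Since FPKM corrects for length, *H19* and *Igf2* levels can be set against each other. Control BAT cells held 3.05 ± 0.360 FPKM of *H19* per FPKM of *Igf2* at d0 and 6.19 ± 0.614 at d3, and control WAT cells 2.67 ± 0.512 and 4.16 ± 1.62 (n = 3 each). The depots overlapped on both days only through WAT replicate 1 (3.15 at d0 and 6.03 at d3), although the level of each gene differed several-fold between them. At d3 *Igf2* was at 1.44 FPKM in that library. The other WAT libraries of d3 had ratios of 3.30 and 3.15, against 5.48 to 6.61 in BAT. After siH19 the ratio was 0.0944 ± 0.0154 in BAT d0 and 0.690 ± 0.154 in BAT d3, and 0.348 ± 0.0864 in WAT d0 and 0.279 ± 0.105 in WAT d3. *Igf2os* (antisense to *Igf2*) was at no more than 0.0895 FPKM in any library and the *Mir483* row within *Igf2* was listed at 0 in all 24.

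The fast skeletal muscle troponins *Tnnt3* and *Tnni2*, which anchor and inhibit the thin-filament switch of muscle contraction, were BAT genes in these cultures. *Tnnt3* stood at 33.7, 48.5 and 27.9 FPKM in BAT siCtrl d0 (36.7 ± 10.6, n = 3) and at 30.8, 26.6 and 27.7 FPKM in BAT siCtrl d3 (28.4 ± 2.202, n = 3). With siH19 it stood at 38.2, 39.9 and 48.1 FPKM at d0 (42.1 ± 5.27, n = 3) and at 25.9, 35.8 and 33.0 FPKM at d3 (31.5 ± 5.11, n = 3). In the 12 WAT libraries it ranged only from 0.494 to 1.85 FPKM, so no WAT library came near a BAT library. *Tnni2* stood at 11.3, 18.8 and 8.47 FPKM in BAT siCtrl d0 (12.9 ± 5.31, n = 3) and at 7.05, 5.05 and 6.01 FPKM in BAT siCtrl d3 (6.04 ± 0.996, n = 3). With siH19 its values were 11.5, 15.5 and 18.4 FPKM at d0 (15.1 ± 3.41, n = 3) and 8.82, 8.40 and 11.4 FPKM at d3 (9.53 ± 1.60, n = 3). In WAT it was at no more than 0.289 FPKM and was listed at 0 in 3 libraries.

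By the ratio of control means *Tnnt3* was 48.4-fold higher in BAT than in WAT at d0 and 30.6-fold higher at d3. Both troponins passed the filter on low levels only through BAT, where they then had to be higher, so their depot differences are given as a description with no test. From d0 to d3 *Tnni2* fell by 0.92 in BAT siCtrl (SE 0.27, limma, adjusted p = 0.0175), and *Tnnt3* differed by -0.33 (SE 0.19, adjusted p = 0.156). Without BAT siCtrl d3 replicate 2 the *Tnni2* difference was -0.81 (adjusted p = 0.0567), and without d0 replicate 3 *Tnnt3* was called (-0.50, adjusted p = 0.0327). After siH19 in BAT d3 *Tnni2* rose by 0.58 (SE 0.15, adjusted p = 0.0429), the second call beside *H19*, whereas *Tnnt3* differed by 0.14 (SE 0.12, adjusted p = 0.502). The depot by day term of *Tnni2* in control cells was -0.84 (SE 0.32, adjusted p = 0.0457), but -0.51 with an adjusted p of 0.517 when 0.1 FPKM was added. This call was also lost with no filter (0.0970), with trimmed-mean scaling (0.0695), with a replicate block (0.0689) and when any of 9 of the 12 libraries was left out (0.0529 to 0.1004). *Tnni2* was at no more than 0.257 FPKM in the WAT siCtrl libraries, so its depot by day term mostly restates the BAT change. In BAT siH19 cells *Tnni2* fell by 0.60 (SE 0.18, adjusted p = 0.0207) and *Tnnt3* by 0.41 (SE 0.14, adjusted p = 0.0325) from d0 to d3, and each call was lost when any of 4 of the 6 libraries was left out. After siH19 at d0 neither was called (*Tnni2* 0.27, SE 0.29, adjusted p = 0.661; *Tnnt3* 0.22, SE 0.20, adjusted p = 0.592). The *Tnni2* call at d3 was lost with no filter on low FPKM (adjusted p = 0.106), with trimmed-mean scaling (0.0548) and when any of 5 of the 6 libraries was left out (0.0611 to 0.125).

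Other skeletal muscle genes were also higher in BAT than in WAT cultures. Of 24 listed markers of skeletal muscle in the table (among them *Myod1*, *Myog*, *Pax7*, *Mylpf*, *Ckm* and the skeletal myosin heavy chains), 17 had a mean of at least 1 FPKM in BAT siCtrl d0 and none was listed at 0 there. Their summed level was 558 to 880 FPKM in BAT siCtrl d0, 425 to 455 in BAT siCtrl d3, 716 to 1038 in BAT siH19 d0 and 541 to 733 in BAT siH19 d3, and it stayed between 12.6 and 21.9 FPKM in the 12 WAT libraries. In WAT siCtrl d0, *Myog*, *Myf5*, *Myf6* and *Ckm* were listed at 0. Of the 17 markers tested between the depots at d0, 13 passed the filter only through BAT, as did 10 of 15 at d3. Of the others, which reached the minimum level in both depots, 4 of 4 were called higher in BAT at d0 and 4 of 5 at d3.

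The muscle markers also tracked the spread within groups. BAT siCtrl d0 replicate 2, which was highest of its group for *H19*, *Igf2*, *Tnnt3* and *Tnni2*, was highest of its group for 21 of the 24 markers. In BAT d3 the summed marker level did not overlap between siH19 and siCtrl, and 3 of 17 markers were called higher after siH19 (*Myl1* by 0.55, SE 0.09, limma, adjusted p = 0.00991) and none lower. With trimmed-mean scaling 1 was called. At d0, 0 of 17 were called by limma, with 7 at an unadjusted p under 0.05. In BAT siCtrl 8 of 17 were called lower and none higher from d0 to d3, against 35.3% and 29.9% of all genes. Only 15 markers had at least 1 FPKM in every library of both days, with 7 called lower. Over the 12 BAT libraries, after subtraction of each group's mean, Pearson's r with the summed marker level was 0.919 for *Tnnt3*, 0.811 for *Tnni2*, 0.789 for *Igf2* and 0.718 for *H19*, and lay between -0.0677 and 0.395 for the other 4 genes. These are descriptions over 12 libraries that share depot and medium. In bulk samples fewer cells of a type and less RNA per cell cannot be told apart, and the part of muscle cells in the levels of *H19*, *Igf2*, *Tnnt3* and *Tnni2* was not tested.

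**Figure D2:**
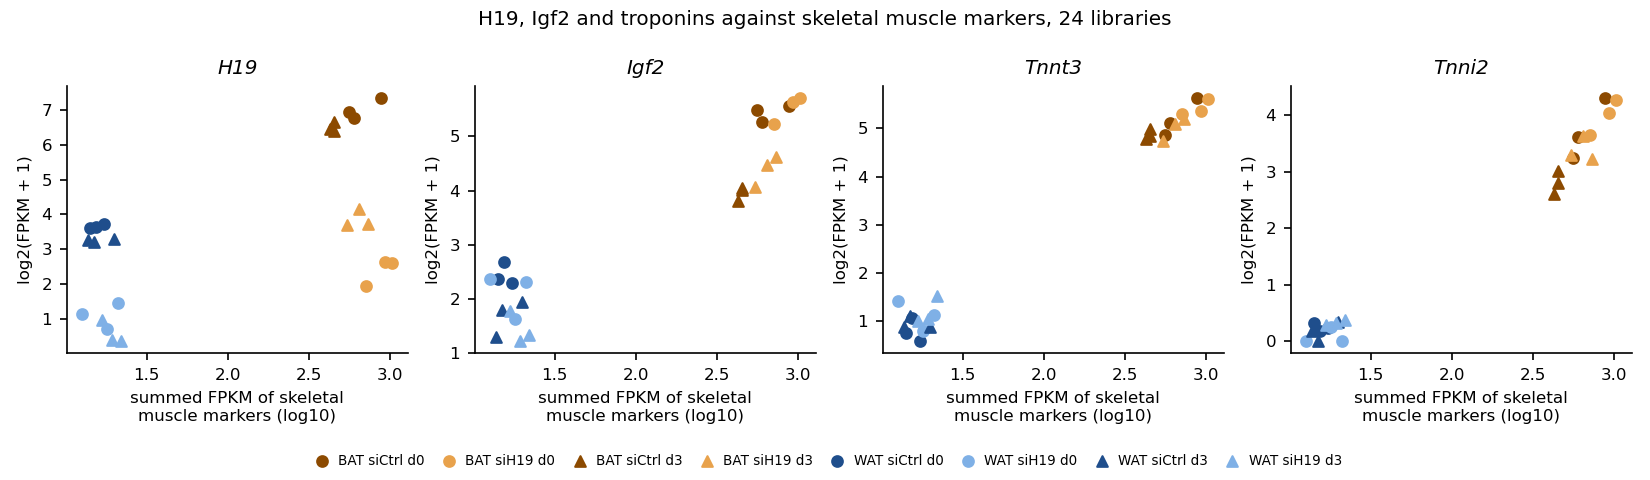
Summed FPKM of the skeletal muscle markers (x axis, log10) against the level of *H19*, *Igf2*, *Tnnt3* and *Tnni2* (y axis, log2(FPKM + 1)) in each of 24 libraries, with colour for depot and siRNA and circles for d0 and triangles for d3. The 12 WAT libraries hold 12.6 to 21.9 FPKM of the markers and the 12 BAT libraries 425 to 1038. *H19* is lower in the BAT siH19 libraries than in the BAT controls of the same day, while their marker sums are 716 to 1038 FPKM against 558 to 880 at d0 and 541 to 733 against 425 to 455 at d3.

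The genes whose level over the 12 siCtrl libraries was most like that of *H19* were also skeletal muscle genes. By Pearson's r of log2(FPKM + 1) among 14111 genes these were *Myh3* (embryonic myosin heavy chain, r = 0.9956), *Myog* (myogenin, 0.9952), *Tnni1* (slow troponin I, 0.9951), *Myh8* (perinatal myosin heavy chain, 0.9949) and *Mymk* (a myoblast fusion protein, 0.9932). For *Igf2* over all 24 libraries and 14694 genes they were *Cavin4* (0.9796), *Gprin3* (0.978), *Stox2* (0.9776), *Actc1* (cardiac alpha actin, 0.9772) and *Irx3* (0.976). *H19* and *Igf2* themselves had r = 0.952 over the 12 siCtrl libraries and 0.595 over all 24, where siH19 separates them. All these points share the depot difference, which sets most of each r, and they are given as a description.

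*Lsp1* fell with differentiation in both depots, and further in BAT. It stood at 60.1, 70.2 and 57.2 FPKM in BAT siCtrl d0 (62.5 ± 6.80, n = 3) and at 10.6, 8.88 and 9.88 FPKM in BAT siCtrl d3 (9.79 ± 0.872, n = 3). WAT siCtrl cells held 73.2, 54.1 and 66.9 FPKM at d0 (64.7 ± 9.74, n = 3) and 31.1, 36.8 and 31.4 FPKM at d3 (33.1 ± 3.24, n = 3). The depots overlapped at d0 and were separate at d3. *Lsp1* fell by 2.55 in BAT (SE 0.10, limma, adjusted p = 7.82e-07) and by 0.94 in WAT (SE 0.12, adjusted p = 0.000553), and the term for the difference of these falls was -1.61 (SE 0.17, adjusted p = 1.44e-05). It did not differ by the test between depots at d0 (-0.04, SE 0.13, adjusted p = 0.793) and was lower in BAT at d3 (-1.66, SE 0.09, adjusted p = 1.08e-05).

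With siH19, *Lsp1* stood at 10.9, 13.8 and 16.3 FPKM in BAT d3 (13.6 ± 2.71, n = 3) and at 21.1, 21.8 and 27.3 FPKM in WAT d3 (23.4 ± 3.42, n = 3). The siH19 libraries lay above the controls in BAT d3 and below them in WAT d3, without overlap in either. Neither difference was called (BAT 0.43, SE 0.14, limma, adjusted p = 0.0971, and WAT -0.49, SE 0.11, adjusted p = 0.334). The BAT difference was called in the fit over all 24 libraries (adjusted p = 0.0451) and without BAT siH19 d3 replicate 1 (0.57, adjusted p = 0.0369). The depot by siRNA term between them was 0.91 (SE 0.20, adjusted p = 0.0172), 1 of 2 calls among the 8 genes against 10.5% of all genes. At d0 the values were 58.0, 50.7 and 50.5 FPKM in BAT siH19 (53.0 ± 4.27, n = 3) and 67.2, 53.3 and 74.6 FPKM in WAT siH19 (65.1 ± 10.8, n = 3), overlapping the controls in both depots. In siH19 cells *Lsp1* fell from d0 to d3 by 1.90 in BAT (SE 0.14, adjusted p = 2.21e-05) and by 1.43 in WAT (SE 0.15, adjusted p = 0.000164).

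Leukocyte markers were present in both depots, since 11 of 14 listed markers (among them *Ptprc*, *Cd68*, *Adgre1* and *Lyz2*) had a mean of at least 1 FPKM in BAT siCtrl d0 and 12 in WAT siCtrl d0. The T-cell marker *Cd3e* was listed at 0 in BAT siCtrl d0. The summed level was 163 to 203 FPKM in BAT siCtrl d0 and 140 to 176 in BAT siCtrl d3, and 352 to 408 in WAT siCtrl d0 and 521 to 571 in WAT siCtrl d3. Between d0 and d3 none of 11 was called higher and 9 lower in BAT (median -0.93, against -0.10 over all genes), and 2 were called higher and 5 lower of 12 in WAT (median -0.38, against 0.01), with *Coro1a* down by 1.54 and *Lyz2* up by 0.94. Only 8 markers had at least 1 FPKM in every BAT siCtrl library of both days, with 7 called lower. In WAT siCtrl 11 did, with 2 called higher and 4 lower (median -0.18). *Lsp1* fell further in BAT than each of the 11 markers. In WAT it fell while the summed level rose. After siH19 in BAT d3 the summed level was 87.8 to 99.9 FPKM, below the controls, with 3 of 8 markers called lower (*Laptm5* by -0.84, SE 0.22, limma, adjusted p = 0.0484), while *Lsp1* lay above its controls. Only 6 of these markers had at least 1 FPKM in every library of both groups, with 2 called lower. In WAT d3 the summed level was 586 to 665 FPKM after siH19, above the controls, with 0 of 11 called and 3 at an unadjusted p under 0.05. Their part in the *Lsp1* levels was not tested.

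**Figure D3:**
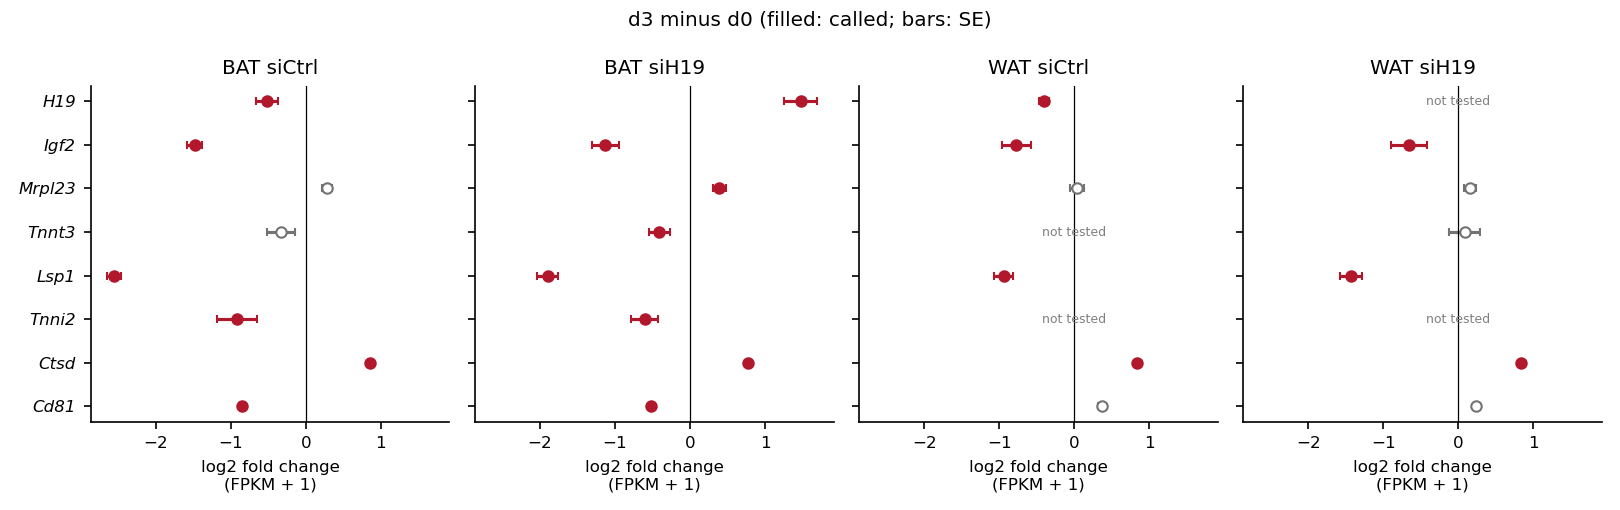
Log2 fold change from d0 to d3 (shared x axis) with its SE (bars) for each of the 8 genes, from limma on log2(FPKM + 1), with filled points for called genes, in BAT and WAT cells with siCtrl and with siH19. *Ctsd* is at 0.77 to 0.85 in all 4 comparisons, *Igf2* and *Lsp1* are below 0 in all 4, *Cd81* lies on opposite sides of 0 in the depots, and *H19* in BAT is at -0.52 with siCtrl and at 1.47 with siH19.

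*Ctsd* was the most abundant of the 8 genes and rose with differentiation in both depots. It stood at 527.6, 528.4 and 523.8 FPKM in BAT siCtrl d0 (527 ± 2.46, n = 3) and at 902, 983 and 976 FPKM in BAT siCtrl d3 (954 ± 45.3, n = 3), and at 575 ± 25.0 and 1031 ± 19.3 FPKM in the WAT control groups (n = 3 each). Every d3 library was above every d0 library. *Ctsd* rose by 0.85 in BAT siCtrl (SE 0.04, limma, adjusted p = 2.48e-06), by 0.84 in WAT siCtrl (SE 0.04, adjusted p = 5.33e-06), by 0.77 in BAT siH19 (SE 0.03, adjusted p = 1.19e-06) and by 0.83 in WAT siH19 (SE 0.04, adjusted p = 6.8e-06). *Ctsd* shares 6757 bases of its strand with *Gm49369*, itself at 178 to 419 FPKM, so the division of reads between the pair is uncertain, and *Gm49369* rose as well (0.92 in BAT and 0.81 in WAT siCtrl).

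Of 22 other lysosomal genes, 3 were called higher and 12 lower from d0 to d3 in BAT siCtrl (median -0.58, against -0.10 over all genes). *Tfeb*, a transcription factor of lysosomal genes, rose by 1.44 (SE 0.38, limma, adjusted p = 0.0117). In WAT siCtrl 2 were called higher and 1 lower (median -0.03, against 0.01), *Mcoln1*, a lysosomal calcium channel, by 0.99 and *Ctss*, a cathepsin of macrophages, by -0.42. In each depot 21 of the 22 lay below the log2 change of *Ctsd*. After siH19 *Ctsd* was at 497 ± 2.18 FPKM in BAT d0 and 847 ± 16.4 in BAT d3 (n = 3 each), below the controls without overlap on both days. The log2 differences were -0.08 (SE 0.02, adjusted p = 0.139) and -0.17 (SE 0.04, adjusted p = 0.0416), the latter a 1.13-fold difference and so not called. In WAT they were -0.06 (SE 0.04, adjusted p = 0.492) and -0.07 (SE 0.04, adjusted p = 0.586).

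*Cd81*, which in adipose tissue also marks precursor cells, moved in opposite directions in the depots. It stood at 244.8, 245.6 and 244.9 FPKM in BAT siCtrl d0 (245 ± 0.406, n = 3) and at 139, 133 and 135 FPKM in BAT siCtrl d3 (136 ± 3.28, n = 3). In WAT siCtrl it stood at 228, 227 and 213 FPKM at d0 (223 ± 8.71, n = 3) and at 275, 307 and 282 FPKM at d3 (288 ± 16.9, n = 3). The days did not overlap in either depot. *Cd81* fell by 0.85 in BAT (SE 0.03, limma, adjusted p = 8.77e-07), while the difference in WAT was 0.37 (SE 0.05, adjusted p = 0.000941), a 1.29-fold difference just under the minimum that passed it when any of 4 of the 6 libraries was left out. The depot by day term was -1.21 (SE 0.06, adjusted p = 6.38e-08). At d3 *Cd81* was lower in BAT than in WAT (-1.08, SE 0.05, adjusted p = 4.7e-06). In siH19 cells it fell by 0.52 in BAT (SE 0.04, adjusted p = 1.46e-05) and differed by 0.23 in WAT (SE 0.04, adjusted p = 0.00113).

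After siH19, *Cd81* stood at 167, 164 and 170.5 FPKM in BAT d3 (167 ± 3.38, n = 3), above every control library. The difference of 0.30 (SE 0.04, limma, adjusted p = 0.00517) was 1.23-fold and therefore not called, but it differed from that at BAT d0 (-0.03, SE 0.03, adjusted p = 0.575) by 0.33 (SE 0.04, adjusted p = 0.00135). It also differed from that at WAT d3 (-0.02, SE 0.05, adjusted p = 0.907), with a depot by siRNA term of 0.32 (SE 0.06, adjusted p = 0.00708). At d0 *Cd81* was at 239.6 ± 2.82 FPKM in BAT siH19 and at 241 ± 4.21 in WAT siH19, and at d3 at 283 ± 3.79 in WAT siH19 (n = 3 each). Of 15 other tetraspanins and their partners, 3 were called higher and 11 lower from d0 to d3 in BAT siCtrl (median -0.99, against -0.10), *Tspan15* by 2.01 (SE 0.10, adjusted p = 3.23e-06) and *Tspan4* by -2.06 (SE 0.07, adjusted p = 5.76e-07), and 2 higher and 6 lower of 14 in WAT (median -0.14, against 0.01), *Tspan9* by 0.65 and *Ptgfrn*, a partner of *Cd81*, by -1.39. Only 12 of these had at least 1 FPKM in every BAT siCtrl library of both days, with 2 called higher and 9 lower. After siH19 in BAT d3 4 were called higher and 1 lower of 14 (median 0.06, against 0.05), *Cd9*, a close relative of *Cd81*, by 0.46 (SE 0.06, adjusted p = 0.00573) and *Tspan18* by -0.58. With trimmed-mean scaling the split was 1 higher and 1 lower.

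Precursor markers were read beside *Cd81*. The summed level of 6 listed markers (*Pdgfra*, *Pdgfrb*, *Ly6a*, *Thy1*, *Cd34* and *Dlk1*), none of which was listed at 0 throughout a group, was 1219 to 1345 FPKM in BAT siCtrl d0, 384 to 430 in BAT siCtrl d3 and 635 to 693 in BAT siH19 d3. In WAT siCtrl it was 626 to 685 FPKM at d0 and 706 to 786 at d3. From d0 to d3 all 6 were called lower in BAT siCtrl (median -1.90, against -0.10 over all genes), the most *Pdgfrb* (-2.63), with *Cd34* able to pass the filter only through d0, whereas in WAT siCtrl 4 were called lower, the most *Dlk1* (-2.21), and *Ly6a* was called higher (0.74). After siH19 in BAT d3, 4 of 5 were called higher (median 0.45, against 0.05), the most *Ly6a* (0.85, SE 0.06, limma, adjusted p = 0.00134), and 2 with trimmed-mean scaling. The part of precursor cells in the *Cd81* levels was not tested.

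*Mrpl23*, the nearest annotated neighbour of *H19* among the 8, varied least. Its group means lay between 21.4 and 28.6 FPKM. In BAT siCtrl it stood at 24.4, 22.4 and 21.0 FPKM at d0 (22.6 ± 1.73, n = 3) and at 26.7, 28.7 and 27.3 FPKM at d3 (27.6 ± 1.04, n = 3), and in WAT siCtrl at 22.8 ± 2.41 and 23.4 ± 1.88 FPKM (n = 3 each). The BAT groups of the 2 days were separate and the WAT groups overlapped. The difference was 0.28 in BAT (SE 0.07, limma, adjusted p = 0.00824), a 1.21-fold difference that was not called, and 0.04 in WAT (SE 0.09, adjusted p = 0.739). After siH19 its log2 differences were -0.07 and 0.04 in BAT d0 and d3 and -0.04 and 0.07 in WAT, with overlapping groups in all 4. In BAT siH19 cells it rose by 0.39 from d0 to d3 (SE 0.09, adjusted p = 0.00523), but by 0.30, under the minimum fold, without replicate 3 of d3. With trimmed-mean scaling, which shifted the median gene by 0.10 in the BAT d3 against d0 comparison, *Mrpl23* changed by 0.39 there and was called (adjusted p = 0.00281). Between control BAT and WAT cells *Mrpl23* differed by -0.01 at d0 and by 0.23 at d3 (limma, adjusted p = 0.0234), under the minimum fold. The d3 depot difference was called with trimmed-mean scaling (0.42, adjusted p = 0.00158), as was the depot by day term (0.39, adjusted p = 0.0192).

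Among 48 other genes of the large mitochondrial ribosomal subunit, 45 were called higher and none lower in BAT siCtrl from d0 to d3 (median 1.33, against -0.10 over all genes), with *Mrpl34* the most (2.65, SE 0.04, limma, adjusted p = 3.93e-08). In WAT siCtrl 38 were called higher and none lower (median 0.60, against 0.01), with *Mrpl12* the most (1.49, SE 0.05, adjusted p = 1.51e-06). By value, 46 of the 48 had a larger change than *Mrpl23* in BAT and 45 in WAT. After siH19, 1 was called in BAT d3 (*Mrpl46* by -0.44, SE 0.10, adjusted p = 0.0319) and 0 in BAT d0, WAT d0 and WAT d3, where 9, 10 and 4 had an unadjusted p under 0.05.

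**Figure D4:**
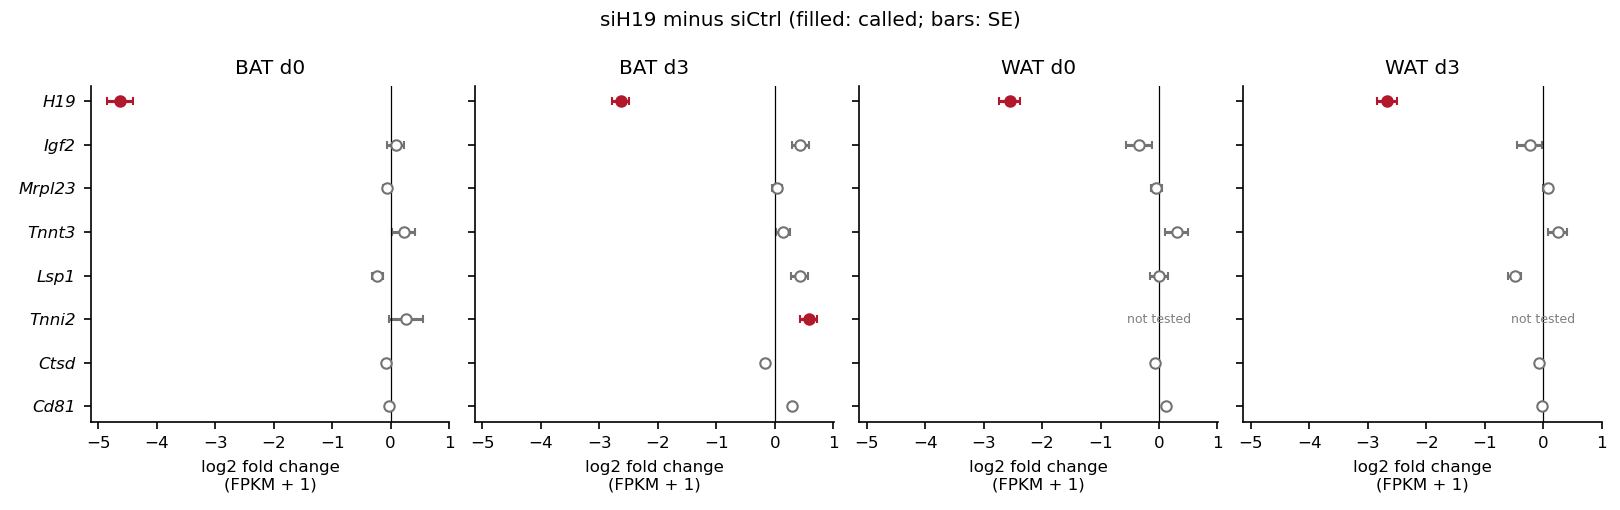
Log2 fold change after siH19 (shared x axis) with its SE (bars) for each of the 8 genes in the 4 combinations of depot and day, from limma on log2(FPKM + 1), with filled points for called genes. *H19* lies between -4.63 and -2.56, and the other genes lie between -0.49 and 0.58.

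Over the 8 genes, 3 of 8 did not overlap between siH19 and siCtrl in BAT d0, where 26.7% of all genes did not, and 6 of 8 did not overlap in BAT d3, against 37.2% of all genes. In WAT d0 it was 2 of 7 against 24.5% and in WAT d3 2 of 7 against 16.2%. *H19* was the only gene of the 8 called in all 4 comparisons. In WAT d3 it passed the filter only through the controls, so only a decrease could be called there. It was also under 1 FPKM in WAT siH19 d0 replicate 2. In BAT d3 the genes that did not overlap lay on both sides, with *Igf2*, *Lsp1*, *Tnni2* and *Cd81* higher after siH19 and *H19* and *Ctsd* lower.

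The rest of the locus was read in a window of 1 Mb on each side of the *H19* start, which holds 91 genes of the table. Of these, 41 were listed at 0 in every library and 24 reached 1 FPKM in at least 3 libraries. Beyond the 8 genes, limma called 0 of 15 tested in BAT d0 after siH19, 2 of 12 in BAT d3, 0 of 15 in WAT d0 and 0 of 13 in WAT d3, with 0, 5, 1 and 1 at an unadjusted p under 0.05. The 2 were *R74862* (0.39, SE 0.09, adjusted p = 0.0379), which overlaps *Cd81* on the opposite strand by 948 bases and whose call was lost with trimmed-mean scaling, with no filter, with a replicate block and when any of the 6 libraries was left out, and *Nap1l4*, a histone chaperone (-0.42, SE 0.06, adjusted p = 0.00596). The labels name a directional library kit and the methods a kit without that word, and no source used here says whether the quantification used strand, so reads of overlapping genes cannot be told apart.

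At d3 against d0, 4 of 15 window genes were called higher and 6 lower in BAT siCtrl, against 29.9% and 35.3% of all genes, and 4 each of 14 in WAT siCtrl, against 26.3% and 23.9%. Only 10 of these had at least 1 FPKM in every BAT siCtrl library of both days, with 4 called higher and 2 lower. In WAT siCtrl 12 did, with 4 called higher and 3 lower. *Dusp8* and *Slc22a18* were too low to be tested after siH19 in BAT d3. *Gm44732* (1.22 and 2.94), *Cdkn1c*, an imprinted inhibitor of the cell cycle (0.96 and 2.82), and *Gm49369* rose the most in both depots. *Ifitm10* (-1.64 and -1.53) and *Dusp8*, a MAP kinase phosphatase (-1.19 and -1.44), were among those that fell the most in both, with *Slc22a18* in BAT (-1.28) and *Tollip* in WAT (-0.39).

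**Figure D5:**
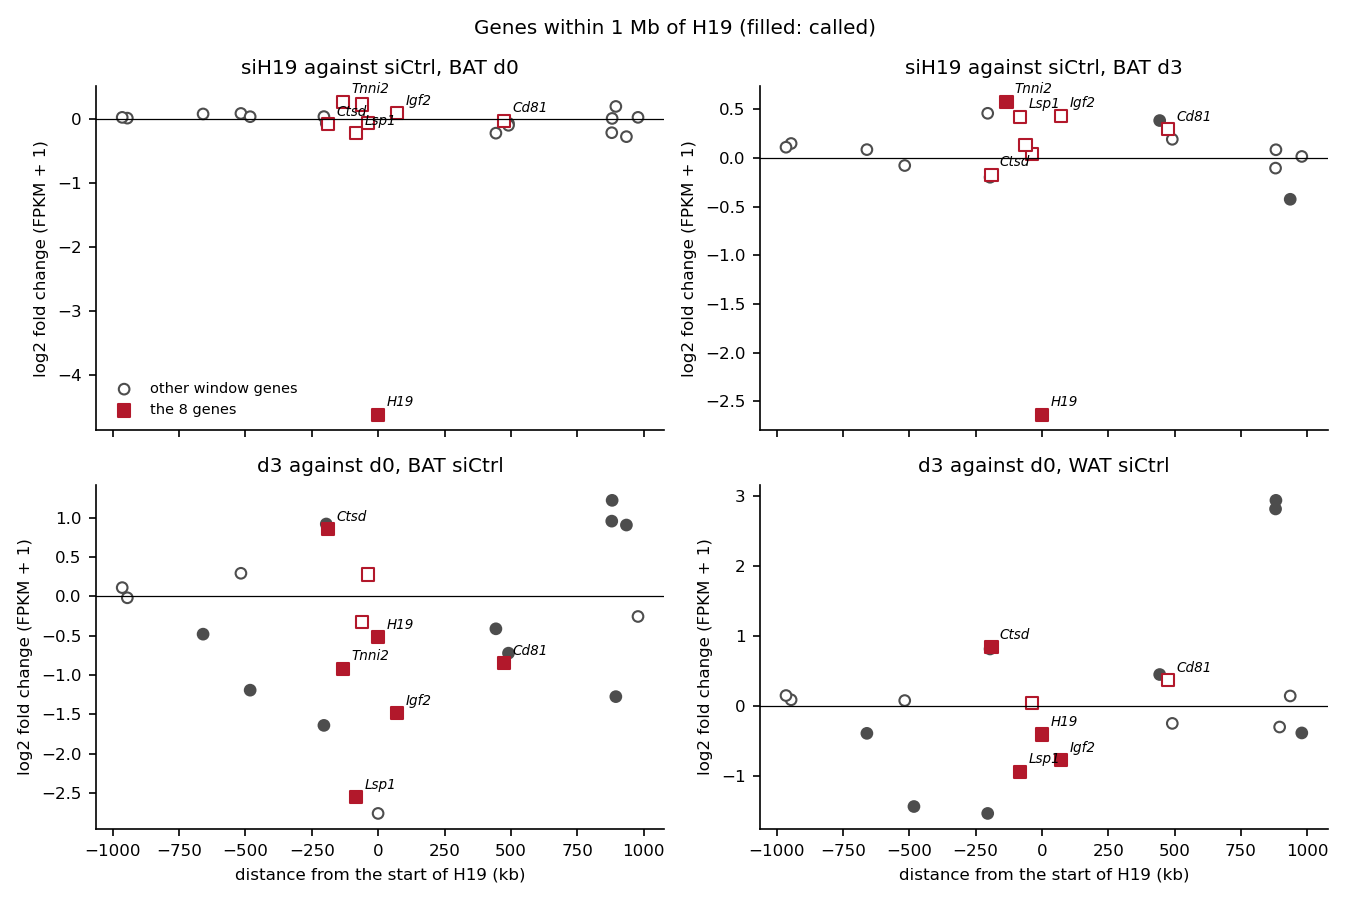
Log2 fold change on log2(FPKM + 1) (y axis) against distance from the *H19* start in kb (x axis) for each gene tested within 1 Mb, after siH19 in BAT at d0 and d3 (upper panels) and from d0 to d3 in BAT and WAT siCtrl cells (lower panels). Squares are the 8 genes, circles the other window genes, and filled symbols are called. After siH19 *H19* stands at 0 kb with the largest called decrease (-4.63 and -2.64), whereas from d0 to d3 called genes lie on both sides of 0 along the window. The uncalled circle at -2.76 in the BAT siCtrl panel is *Gm27786*, a 70-base annotation inside *H19* on the opposite strand that was listed at 0 in 21 of 24 libraries.

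The wider imprinted neighbourhood and the IGF pathway were read from listed genes. Of 23 imprinted genes and RNAs listed from this stretch of chromosome 7, 10 to 12 could be tested. None was called after siH19 in BAT d0 (1 at an unadjusted p under 0.05), WAT d0 (0) or WAT d3 (3), and 2 were lower in BAT d3, the most *Dhcr7*, the last enzyme of cholesterol synthesis (-0.54, SE 0.05, limma, adjusted p = 0.0023). At d3 against d0, 4 were called higher and 5 lower of 11 in BAT siCtrl (median -0.26, against -0.10) and 3 and 4 of 11 in WAT (median -0.25, against 0.01). Only 9 had at least 1 FPKM in every BAT siCtrl library of both days, with 4 called higher and 3 lower (median -0.02). In WAT siCtrl 9 did, with 3 called higher and 3 lower (median 0.008). *Dhcr7* rose by 3.996 in BAT and by 3.77 in WAT, *Osbpl5*, a sterol transfer protein, fell by 1.89 in BAT, and *Tnfrsf23*, a decoy death receptor, fell by 1.63 in WAT. Most of the listed control factors read or keep the methylation of imprinted regions, but the list also holds *Plagl1*, itself a paternally expressed gene. Of 9 tested, 0 were called after siH19 in any of the 4 comparisons, with 1, 3, 3 and 4 at an unadjusted p under 0.05 in BAT d0, BAT d3, WAT d0 and WAT d3. With differentiation, *Zfp57*, which keeps imprint methylation, fell by 2.61 in BAT (SE 0.23, adjusted p = 4.7e-05) and by 1.75 in WAT (SE 0.09, adjusted p = 8.73e-06), and 3 of the 9 were called lower in BAT and 4 in WAT, with *Mbd1* the 1 called higher in WAT (1.08).

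The IGF list holds receptors, binding proteins, RNA-binding proteins of *Igf2* mRNA and signal adaptors. After siH19 in BAT d0, 2 of 18 were called lower, the most the adaptor *Irs2* (-0.53, SE 0.10, limma, adjusted p = 0.0494), and in BAT d3 4 of 14 were called higher, the most the binding protein *Igfbp2* (0.80, SE 0.14, adjusted p = 0.0134), with a list median of 0.21 against 0.05 over all genes. In WAT d0 *Igfbp3* was the 1 of 15 called (0.62, SE 0.06, adjusted p = 0.00768), and in WAT d3 0 of 14 were called, with 4 at an unadjusted p under 0.05. Between d0 and d3, 2 of 17 were called higher and 11 lower in BAT siCtrl (median -0.79, against -0.10), and 1 and 6 of 15 in WAT (median -0.21, against 0.01). Only 14 had at least 1 FPKM in every BAT siCtrl library of both days, with 2 called higher and 8 lower (median -0.53). In WAT siCtrl 13 did, with 1 called higher and 5 lower (median -0.18). The insulin receptor *Insr* rose in both (1.96 and 1.05), *Igfbp4* fell by 2.15 in BAT and *Pappa*, a protease that cleaves *Igfbp4*, fell by 1.80 in WAT. Between depots at d0 5 were higher in BAT and 8 lower of 17, against 10.2% and 21% of all genes (median -0.25, against -0.13). *Igf2bp3*, an *Igf2* mRNA-binding protein, differed by 1.84 and *Igfbp3* by -3.21. Only 15 had at least 1 FPKM in every library of both depots, with 3 called higher and 8 lower.

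The depots were also checked against their differentiation. All 8 listed adipocyte markers were called higher at d3 than at d0 in BAT and in WAT siCtrl (medians 2.93 and 1.78), against 29.9% and 26.3% of all genes. After siH19, 6 of the 8 were called lower at d0 in each depot. In those comparisons 1.94% of all genes in BAT and 1.53% in WAT were called in either direction. These calls depend on the fit. With a library left out 4 to 74 genes were called in place of 245 in BAT, and 37 to 122 in place of 200 in WAT. With a replicate block 2 genes were called in each depot. At d3 0 of the 8 adipocyte markers were called by limma, where 7 had an unadjusted p under 0.05 in BAT and 3 in WAT. Among brown adipocyte markers 5 of 7 tested were called lower in BAT d3, against 2.18% of all genes. Library depth was not given in the table. The FPKM of a library summed to 710794 to 841456, the depth read from the steps of low values, relative to BAT siCtrl d0 replicate 1, was 0.839 to 1.00 in BAT and 1.03 to 1.19 in WAT libraries, and 12311 to 13125 genes reached 1 FPKM. Replicates of a group had r = 0.9881 to 0.9906.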

How the data were processed

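The 24 libraries were prepared from poly-A RNA of SVF cells. According to the submitters' processing notes, the authors checked reads with FastQC 0.10.1, aligned them to GRCm38 with TopHat2 2.0.10 and computed FPKM with Cufflinks 2.2.1. The methods name another Cufflinks version, the notes also list STAR, DESeq2 and R 3.2.2 without saying what each made, and sources differ on single-end or paired-end reads. The deposited table names no unit, and its values per Ensembl gene were taken as FPKM and carry no counts, so intervals from depth cannot be given. Genes with at least 1 FPKM in at least 3 libraries of a comparison were tested with limma 3.58.1 (R 4.3.3, intensity trend) on log2(FPKM + 1), with 6 libraries in a comparison of 2 groups and 12 for an interaction, and with Benjamini-Hochberg adjustment over all genes tested. The pipeline was tested on simulated data. The 8 genes and all gene lists were chosen with earlier results of these data known. The shares of all genes called, given with the counts of the 8 genes, also stand beside list counts of the same comparison. Of each list, the gene called with the largest change in each direction was named (1 such gene is not reported here), and of the window every gene called after siH19 and the 3 with the largest change each way from d0 to d3. Sites were located with GENCODE vM21. Alternatives were 0.1 FPKM added, no filter, trimmed-mean scaling, a fit over all 24 libraries, a replicate block, each library left out and the adjusted p without a minimum fold.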

Additional observations from a re-analysis of the deposited data

Results flagged for a closer look

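In 9 cases an effect on 1 of the 8 genes differed between depots or between days by an interaction term tested with limma at an adjusted p under 0.05. Between depots, the effect of siH19 differed at d0 for *H19* (-2.07), 1 of 8 genes against 1.02% of all genes. At d3 it differed for *Lsp1* (0.91) and *Cd81* (0.32), 2 of 8 against 10.5%. Between days in BAT, the effect of siH19 differed for *H19* (1.99) and *Cd81* (0.33), 2 of 8 against 9.06% of all genes. Between depots, the change from d0 to d3 in control cells differed for *Igf2* (-0.71), *Lsp1* (-1.61), *Tnni2* (-0.84) and *Cd81* (-1.21), 4 of 8 against 53% of all genes. The *Tnni2* value rests on WAT libraries in which the gene is below 0.3 FPKM or listed at 0, so it mostly restates the BAT change. Leaving out any of 9 of the 12 libraries ended the *Tnni2* call and any of 7 the *Igf2* call, and both were lost with 0.1 FPKM added and with no filter. The *H19* call at d0 was also lost with 0.1 FPKM added (-1.63, adjusted p = 0.135). It was lost as well when any of several single libraries was left out (adjusted p 0.0514 to 0.0568). All values are log2 differences of differences, BAT minus WAT or d3 minus d0.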

How the results depend on the processing

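The count of genes called among the 8 changed as follows. For siH19 in BAT d3 it was 2, and it became 4 on the adjusted p alone, 1 with no filter on low FPKM, 1 with trimmed-mean scaling, and 1 to 3 with single libraries left out. For siH19 in WAT d3 it was 1, and 0 with 0.1 FPKM added or with no filter, and 0 to 1 with single libraries left out (0 without WAT siH19 d3 replicate 1 or any WAT siCtrl d3 replicate). The depot by siRNA term at d0 went from 1 to 0 with 0.1 FPKM added and was 0 to 1 with single libraries left out, and the depot by day term went from 4 to 2 with 0.1 FPKM added or no filter and was 2 to 4. With single libraries left out, the count from d0 to d3 was 4 to 7 in BAT siCtrl, 3 to 5 in WAT siCtrl, 6 to 8 in BAT siH19 and 2 to 3 in WAT siH19. Likewise it was 3 to 4 between depots at d0, 5 to 6 at d3 and 2 to 3 for the day by siRNA term in BAT. On the adjusted p alone the depots gave 6 at d0 and 7 at d3, and WAT siH19 gave 4 from d0 to d3. Over all genes tested this rule called 6386 of 13139, 8500 of 13120 and 8881 of 13357 in these comparisons. For siH19 in BAT d3 it called 2023 of 12500. In the WAT siCtrl d3 against d0 comparison *H19* was not called in the fit over all 24 libraries (adjusted p = 0.102).

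Replicate numbers did not pair the samples: over 30 pairs of same-numbered libraries r ran from -0.143 to 0.088. With a replicate block, 1 of the 8 genes was called for siH19 in BAT d3 and 0 in WAT d0 and in WAT d3, where *H19* had adjusted p-values of 0.0526 and 0.143.

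Over all genes, calls after siH19 in BAT d0 went from 245 to 35 with no filter, 526 in the fit over all 24 libraries, 395 on the adjusted p alone, 2 with the block and 4 to 74 with a library left out. In WAT d0 they went from 200 to 65, 378, 265, 2 and 37 to 122. In WAT d3 they went from 4 to 15 in the fit over all 24 libraries, 0 with the block and 1 to 5, and in BAT d3 from 1071 to 2023 on the adjusted p alone and 631 to 916 with a library left out. Trimmed-mean scaling moved the share of calls that were higher from 74.6% to 55.8% in BAT d3, from 21.5% to 34.2% in WAT d0, between depots from 32.8% to 51.3% at d0 and from 33.9% to 51.4% at d3, and of the interaction terms from 66.6% to 44.3% (depot by siRNA, d3), from 86.0% to 65.3% (day by siRNA, BAT, with 818 calls in place of 1230) and from 47.0% to 58.5% (depot by day). The depot by siRNA term at d0 went from 140 calls to 85 with no filter, 302 in the fit over all 24 libraries, 81 with the block and 35 to 110 with a library left out. With a library left out, the depot by siRNA term at d3 went from 1451 to between 889 and 1432, and the day by siRNA term from 1230 to between 801 and 1091 in BAT and from 241 to between 127 and 241 in WAT. The cause of these shifts was not tested.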
